A study of Mus musculus with 54 samples.

Results

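Blood vessels of the mouse kidney are described here through 10 genes made by endothelial cells, the cells that line them. Kdr and Flt1 encode receptors for vascular endothelial growth factor, Tek the receptor for angiopoietins, and Eng endoglin, a co-receptor of the transforming growth factor β family. Pecam1 encodes a junctional adhesion molecule and Emcn a surface sialomucin. Plvap encodes the protein of the diaphragms that close endothelial pores, Ehd3 a membrane-trafficking protein known from glomerular endothelium, and Esm1 and Igfbp3 secreted proteins. The genes were taken as a fixed list, and all 10 were listed in all 54 libraries, out of 33126 genes listed in at least 1 library.

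Each of 18 groups held whole kidneys of 3 untreated mice. The C57BL/6J mice were males of 19 weeks, of a line named AFAPIL.1DEL in the methods, and gave fresh, cryopreserved and methanol-fixed cells after either warm dissociation with a commercial enzyme kit or cold dissociation on ice with a bacterial protease, besides bulk RNA of both fresh suspensions. The Balb/c males of 18 weeks gave fresh cold-dissociated cells, nuclei of flash-frozen kidney (sorted by fluorescence after 3x500g centrifugation) and bulk RNA of intact kidney. The Balb/c females of 15 weeks, former breeders, gave fresh and cryopreserved cold-dissociated cells, nuclei made in 3 ways (sorted after 3x500g, sorted after 1x2000g, or purified on sucrose without a sort), and bulk RNA of the cold suspension and of intact kidney. Counts from cells came from exonic reads and counts from nuclei from exonic and intronic reads. Strain and age separated the C57BL/6J from the Balb/c experiments, and sex, age and chemistry version the Balb/c females from both male experiments, so that levels were tested only within an experiment.

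The 15 bulk libraries held 2326998 to 31093949 counted reads and the 39 droplet libraries 983522 to 35170947 unique molecular identifiers (UMIs), with 782 to 9308 barcodes each. Of 175959 barcodes, 16230 were endothelial-like. They were found by clustering without the 10 genes and named from other markers (Cdh5, Egfl7, Tie1, Cldn5 and the like), 26 of which were listed in each group, so that a level of the 10 genes was not used to find the cells. No pair of the 39 libraries shared more than 2.046% of the barcodes of the smaller library. Levels in cells and nuclei are CPM, UMI counts summed over the endothelial-like barcodes of a library and scaled to a common total, and each library is 1 replicate.

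Capillary endothelium depends on growth factor signals from its neighbours. In the glomerulus, podocytes make the growth factor that Kdr binds, and the glomerular endothelium is open, with pores that carry no diaphragm in the adult. The capillaries around the tubules have pores closed by the Plvap diaphragm, and Flt1 acts largely as a decoy that takes up the same growth factor, while Tek is held active by angiopoietin-1 from mural cells. Many endothelial genes are bound by transcription factors of the ETS family, whose core motif is GGAA.

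The 150 bases before the RefSeq start (GRCm38.p6) of the 4 receptor genes are shown because edgeR called all 4 lower in cold-dissociated methanol-fixed cells below; Tek was not called in the warm-dissociated ones. Capitals mark GGAA on the printed strand or on the other strand, where it reads TTCC. They lie at chr5:75978456-75978605 on the minus strand for Kdr, chr5:147726012-147726161 on the minus strand for Flt1, chr4:94739139-94739288 on the plus strand for Tek and chr2:32646445-32646594 on the plus strand for Eng.
Kdr: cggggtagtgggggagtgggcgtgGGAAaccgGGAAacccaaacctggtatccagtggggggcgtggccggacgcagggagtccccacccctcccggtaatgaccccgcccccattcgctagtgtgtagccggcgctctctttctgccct
Flt1: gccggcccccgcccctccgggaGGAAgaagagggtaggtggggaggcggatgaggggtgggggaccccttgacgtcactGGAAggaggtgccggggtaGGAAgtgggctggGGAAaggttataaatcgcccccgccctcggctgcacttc
Tek: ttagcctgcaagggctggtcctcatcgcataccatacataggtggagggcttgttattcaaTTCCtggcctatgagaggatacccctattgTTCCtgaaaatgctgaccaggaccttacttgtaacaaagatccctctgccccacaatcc
Eng: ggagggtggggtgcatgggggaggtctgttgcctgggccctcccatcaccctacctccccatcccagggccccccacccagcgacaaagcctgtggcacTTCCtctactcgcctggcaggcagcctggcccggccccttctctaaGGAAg
The motif occurred 4 times for Flt1 and 2 times each for Kdr, Tek and Eng. It occurred at least 1 time in the 8 members that had a promoter in the table, and 3 times for Emcn. Of all 32851 promoters of the same length 80.8% held it, with a median of 2, and 26.1% held it 3 times or more. Such a match is a description of these letters, not of binding.

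In the annotation (GRCm38) the genes differed widely in length. Flt1 (chromosome 5, 147561604 to 147726011) spanned 164.4 kb, Tek (chromosome 4, 94739289 to 94874976) 135.7 kb and Pecam1 (chromosome 11, 106654217 to 106750628) 96.4 kb. Emcn (chromosome 3, 137341067 to 137432185) spanned 91.1 kb, Kdr (chromosome 5, 75932827 to 75978458) 45.6 kb and Eng (chromosome 2, 32646595 to 32682669) 36.1 kb. The remaining genes were shorter than these: Ehd3 (chromosome 17, 73804134 to 73832094) spanned 28.0 kb, Plvap (chromosome 8, 71497765 to 71511752) 13.99 kb, Esm1 (chromosome 13, 113209659 to 113218098) 8.44 kb and Igfbp3 (chromosome 11, 7206086 to 7213923) 7.84 kb.

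In bulk RNA the diaphragm gene Plvap led in 4 of the 5 groups. Per exon length, as RPKM, reads scaled to exon length and to library size, it reached 30.7 ± 2.35 (SD, n = 3, as for all group means here) in the C57BL/6J cold suspensions, 34.8 ± 4.06 in the Balb/c female cold suspensions, 70.4 ± 5.69 in Balb/c female intact kidney and 47.1 ± 11.8 in Balb/c male intact kidney. In the C57BL/6J warm suspensions endoglin stood first, with 26.2 ± 1.80 against 23.9 ± 0.655 for Plvap, and the ranges of the 2 genes did not overlap. Plvap did not overlap the next gene in the cold suspensions of either strain or in female intact kidney, but overlapped Igfbp3 (42.1 RPKM) in male intact kidney. The lowest level was that of Ehd3 (11.1 ± 0.993) in the C57BL/6J cold suspensions and of Flt1 in the C57BL/6J warm (9.97), Balb/c female cold (3.91) and Balb/c female intact (5.44) groups. In Balb/c male intact kidney it was again that of Ehd3 (5.39). The lowest gene overlapped the next one in the other 4 groups. Kdr reached 24.5 ± 3.31 RPKM in the C57BL/6J cold suspensions, and 7.72 in the Balb/c female ones. The C57BL/6J suspensions and Balb/c male kidneys were made with ribosomal RNA depletion and the Balb/c female libraries with poly(A) selection, so that these levels are set side by side without a test.

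**Figure D1:**
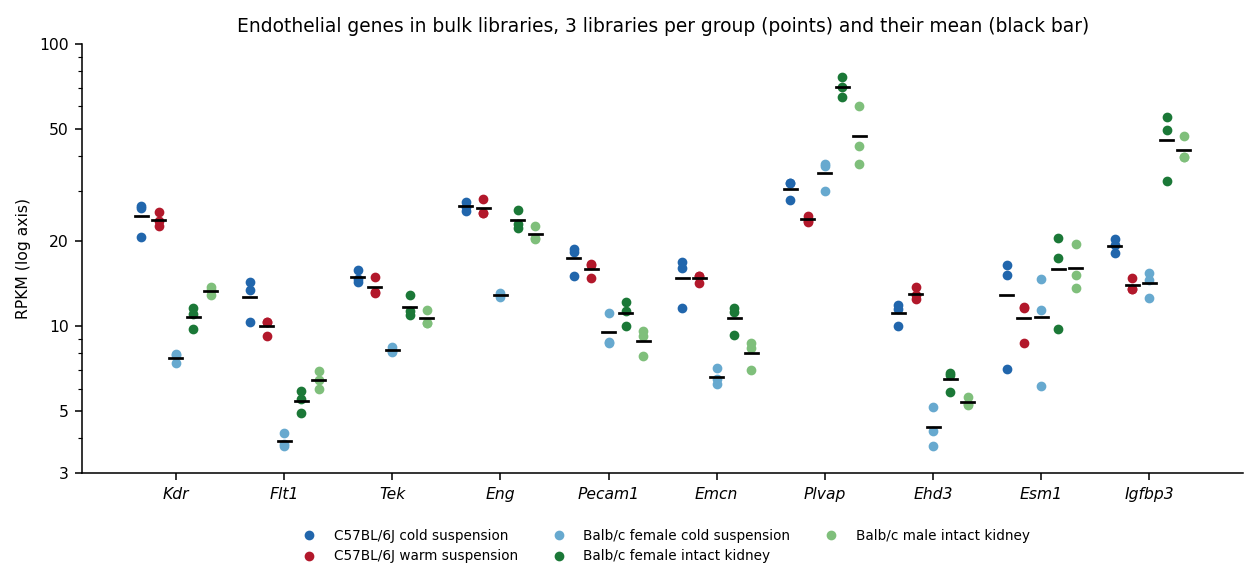
Level of each of the 10 genes in the 15 bulk libraries, as RPKM (log axis), by group. Points are libraries and bars group means. Plvap stood at 70.4 RPKM in female intact kidney and 34.8 in female cold suspensions, and Flt1 at 5.44 and 3.91.

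The 10 genes marked endothelial cells rather than other cells. In fresh cold-dissociated C57BL/6J cells the endothelial-like sums held 2700 CPM of Plvap, 1959 of Emcn, 630 of Kdr and 333 of Ehd3, as means of 3 libraries. The highest level in any other class was 94.0 CPM, for Pecam1 in B cells. Cells of the joint mesangial, mural or fibroblast class came next, with 79.1 CPM of Emcn, 49.1 of Ehd3 and 44.7 of Eng, and proximal tubule cells held 1.62 CPM of Kdr and 2.79 of Emcn. In nuclei of Balb/c females (3x500g) Igfbp3 stood higher in nuclei of that joint class (868 ± 405 CPM) than in endothelial-like nuclei (234 ± 31.2), and Eng reached 536 against 1127 CPM. In male nuclei Igfbp3 stood at 1987 ± 728 CPM in the joint class and 723 ± 280 in endothelial-like nuclei. In bulk RNA, which holds all these cells, fewer cells of a type and less RNA per cell cannot be told apart.

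Within endothelium, the capillary markers separated the beds. Subclusters were named from markers outside the list. In fresh Balb/c female cells, glomerular endothelial-like cells (81 barcodes) held 2337 ± 120 CPM of Ehd3 and 1821 ± 102 of Kdr, but 8.94 of Plvap, 14.04 of Esm1 and 15.4 of Igfbp3. Peritubular capillary-like cells (406 barcodes) showed the reverse for the diaphragm and secreted genes, with 2616 ± 171 CPM of Plvap, 1565 ± 498 of Esm1 and 1051 ± 274 of Igfbp3, beside 220 of Ehd3. Venous or ascending vasa recta-like cells kept Plvap (2588 CPM) with less Kdr (450), and descending vasa recta-like cells kept Igfbp3 (865 CPM) with 95.1 of Kdr and 8.35 of Ehd3. Fresh C57BL/6J cold cells gave glomerular levels of 2042 CPM for Ehd3 and 27.4 for Plvap, and no UMI of Igfbp3, in the 2 libraries with at least 10 such barcodes. Peritubular cells of the same mice held 3631 CPM of Plvap, 1640 of Esm1 and 281 of Ehd3. The receptors Flt1 and Tek and the junction gene Pecam1 varied less between glomerular and peritubular cells, at 941 against 1213, 420 against 457 and 766 against 708 CPM in the Balb/c females. These levels describe clusters and carry no test.

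**Figure D2:**
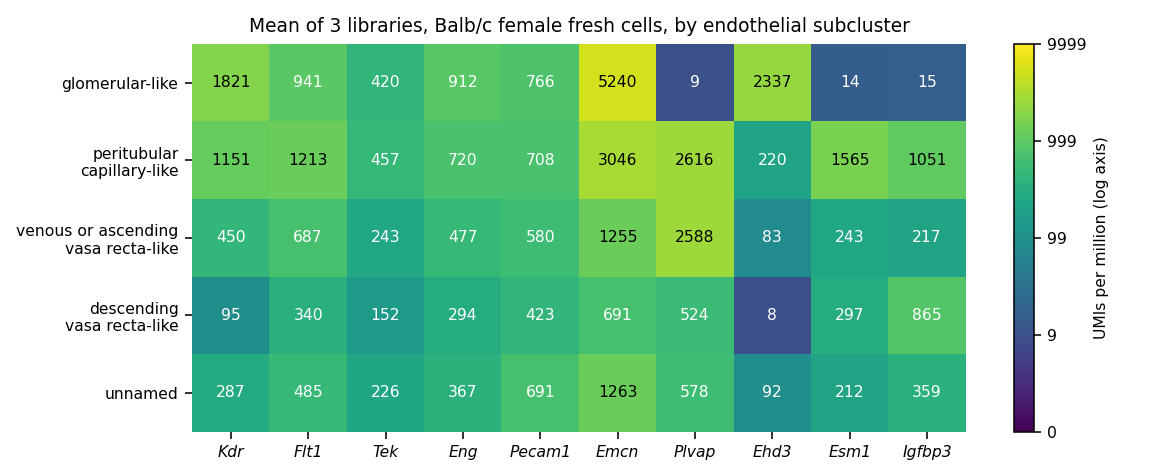
Level of the 10 genes in the endothelial subclusters of fresh cold-dissociated Balb/c female kidney, as the mean of 3 libraries in CPM. Ehd3 was at 2337 in glomerular and 220 in peritubular cells, Plvap at 8.94 and 2616.

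Fresh cells of warm and cold dissociation were compared to see whether the endothelial genes differed between the protocols. These differed in temperature, enzyme and handling at once, which cannot be told apart. In the endothelial-like sums no difference of the 10 passed the test: 0 were called by edgeR and 0 by DESeq2, and 0 had an unadjusted p under 0.05, where edgeR called 1.50% of all 4718 genes tested. Kdr was at 689, 664 and 576 normalised CPM in the cold and 678, 576 and 588 in the warm libraries, a log2 fold change of -0.07 ± 0.15 (SE). Emcn was at 2258, 1963 and 1753 against 2615, 1982 and 2115. The groups overlapped for both genes. The log2 fold change was 0.39 ± 0.21 for Plvap, 0.37 ± 0.21 for Eng, 0.22 for Igfbp3, 0.17 for Emcn, -0.05 for Pecam1, -0.08 for Flt1, -0.18 for Tek and -0.22 for Ehd3, with adjusted p from 0.506 to 0.934 and overlap in each. Esm1 spread most, with 1811, 841 and 497 in the cold and 2428, 1117 and 1486 in the warm libraries (0.69 ± 0.37, adjusted p = 0.491), replicate 1 being the highest of both groups. Without cold replicate 1 Esm1 rose by 1.31 with an adjusted p of 0.0331. The median of the 10 was 0.0586 and that of all genes 0.00165. As a share of all barcodes, endothelial-like ones made up 6.71% ± 1.54 in the cold and 4.50% ± 0.172 in the warm libraries. The exact two-sided permutation p was 0.1, the smallest possible (adjusted p = 0.133). The paper listed endothelial cells among the populations less abundant after warm dissociation. Barcodes named glomerular numbered 50 of 825 in the cold and 7 of 513 in the warm libraries. Peritubular ones numbered 476 and 275, and 207 and 172 were unnamed.

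Around them, other vascular genes did move. Of 51 tested genes of the pathway lists (ligands, other receptors, endoglin pathway, junctions, caveolae, transcription factors and IGF binding proteins), 2 were higher and 1 lower after warm dissociation. Icam1, a leukocyte adhesion molecule, rose by 1.20 ± 0.23 and Klf4, an immediate-early and flow-responsive factor, by 1.11 ± 0.18, while Id1, a target of the endoglin pathway, fell by 1.03. The 17 stress genes named by the study summed to 3358 to 3467 CPM in the cold and 17147 to 25604 CPM in the warm endothelial sums. The study's authors had picked that list by hand from genes induced in its warm-dissociated samples, so this rise only describes the sums.

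In bulk RNA of the same kind of suspensions, 3 of the 10 genes were lower after warm dissociation and none was higher. Over all 14102 genes 3.26% were called lower. Igfbp3 stood at 59.6, 63.4 and 58.5 normalised CPM in the cold and 42.1, 45.8 and 42.5 in the warm suspensions (-0.49 ± 0.08, adjusted p = 0.0026). Plvap stood at 62.9, 63.4 and 57.4 against 46.1, 46.2 and 49.3 (-0.39 ± 0.08, adjusted p = 0.00824), and Flt1 at 179, 192 and 144 against 138, 123 and 141 (-0.37 ± 0.10, adjusted p = 0.0334). None of the 3 genes overlapped between the groups. The call of Flt1 was the frailest, since leaving out a library lost it in 5 of 6 cases, with adjusted p from 0.0035 to 0.142.

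The glomerular gene Ehd3 was not called, with 77.1, 74.8 and 67.7 in the cold and 80.9, 83.1 and 90.6 in the warm suspensions. These groups did not overlap either, but the difference of 0.20 ± 0.08 had an adjusted p of 0.138. Kdr was at 234, 240 and 193 against 211, 200 and 230, and overlapped. So did Tek (-0.14 ± 0.08), Pecam1 (-0.15 ± 0.08), Eng (-0.05 ± 0.07) and Emcn (-0.03 ± 0.11), with adjusted p from 0.335 to 0.902. Esm1 was low in cold replicate 3 (15.2, against 31.5 and 34.4 in the other two), and without that library it was called lower (-0.57, adjusted p = 0.0273). The median of the 10 genes was -0.146 and that of all genes -0.00981. The other endothelial markers summed to 1102 to 1298 CPM in the cold and 1160 to 1228 CPM in the warm suspensions, and those of mesangial, mural or fibroblast cells to 790 to 970 and 679 to 738 CPM. Podocyte markers were also lower in the warm suspensions (1277 to 1663.5 against 1101 to 1202.5 CPM), whereas those of the thick ascending limb (8099 to 8109 against 9653 to 11218 CPM), connecting tubule (1741 to 2074 against 2881.5 to 3532.5 CPM) and principal cells (698 to 959 against 1294 to 1587 CPM) were higher, without overlap. Proximal tubule markers were lower in the warm suspensions (36411 to 38730 against 31778 to 34799 CPM), also without overlap. So were those of macrophages or monocytes (741 to 888 against 551 to 686 CPM) and B cells (104.5 to 141.9 against 66.3 to 85.1 CPM). The part of these sums, and of the lower mean endothelial share in the warm droplet libraries, in the calls was not tested. Among 59 pathway genes, 6 were higher and 3 lower, led by Klf4 (2.32 ± 0.13) and Klf2 (1.57 ± 0.11), the caveolar genes Cav2 (1.01) and Cav1 (0.93), and Podxl, which podocytes also make, at -0.41 ± 0.10.

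Intact kidney and cold suspension of the Balb/c females were compared to see whether the endothelial genes differed between them. The intact kidneys were flash-frozen, whereas the suspensions were minced, digested, spun and strained. Loss of cells, freezing, handling and change of RNA cannot be told apart. Of the 10 genes 8 were higher in intact kidney and none was lower, against 12.1% of 16538 genes called higher. Igfbp3 showed the widest gap, with 45.3, 48.0 and 39.2 normalised CPM in the suspensions and 159, 172 and 101 in intact kidney (1.71 ± 0.17, adjusted p = 0.000141). Plvap went from 74.1, 72.8 and 59.6 to 132, 151 and 138 (1.03 ± 0.08, adjusted p = 3.9e-05). Eng went from 52.0, 52.7 and 51.0 to 92.9, 104 and 91.7 (0.89 ± 0.06, adjusted p = 1.1e-05). All intact libraries lay above all suspensions for these 3 genes. Igfbp3 was not confined to endothelium in nuclei. The joint mesangial, mural or fibroblast class held 868 ± 405 CPM of it in Balb/c female 3x500g nuclei and 11.8 in fresh Balb/c female cells. The part of such cells in its gap was not tested.

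The growth factor receptors were higher by similar amounts. Kdr went from 66.3, 71.3 and 70.8 to 102, 105 and 86.7 (0.49 ± 0.07), Flt1 from 50.5, 51.2 and 56.1 to 68.5, 79.2 and 73.4 (0.49 ± 0.07), and Tek from 39.4, 38.0 and 37.9 to 52.8, 60.4 and 52.5 (0.52 ± 0.07). Their adjusted p were 0.00131, 0.00105 and 0.000559. None of the receptors overlapped between the groups. Emcn rose by 0.71 ± 0.08, from 34.9, 33.5 and 38.3 to 51.8, 60.7 and 61.8, and Ehd3 by 0.57 ± 0.11, from 24.4, 27.6 and 33.6 to 39.5, 44.7 and 43.4. Pecam1 was at 54.4, 53.7 and 69.2 against 64.1, 70.1 and 74.3 and overlapped (0.23 ± 0.10, adjusted p = 0.142), cold replicate 3 being the highest suspension. Without that library it was called (0.37, adjusted p = 0.00985). Esm1 overlapped too, at 23.9, 30.6 and 12.8 against 37.4, 42.8 and 20.2 (0.58 ± 0.31, adjusted p = 0.241), replicate 3 being low in both groups.

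The median over the 10 genes was 0.575 and that over all genes -0.0029. The other endothelial markers summed to 710 to 775 CPM in the suspensions and 840 to 955 CPM in intact kidney, and the mesangial, mural or fibroblast markers to 584 to 690 and 527 to 641 CPM. The other vascular growth factor and angiopoietin receptors were higher in 5 of 5 cases, with Nrp2 at 1.41 ± 0.08 and Flt4 at 0.68 ± 0.11. The remaining pathway genes were mixed, and of all 62 tested 17 were higher and 11 lower. The endothelial factors Erg (0.54 ± 0.09) and Sox18 (0.51 ± 0.07) were higher, whereas Sox17 (-0.71 ± 0.12), the caveolar gene Cav1 (-0.57 ± 0.08) and the perivascular ligand Angpt1 (-0.52 ± 0.11) were lower.

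**Figure D3:**
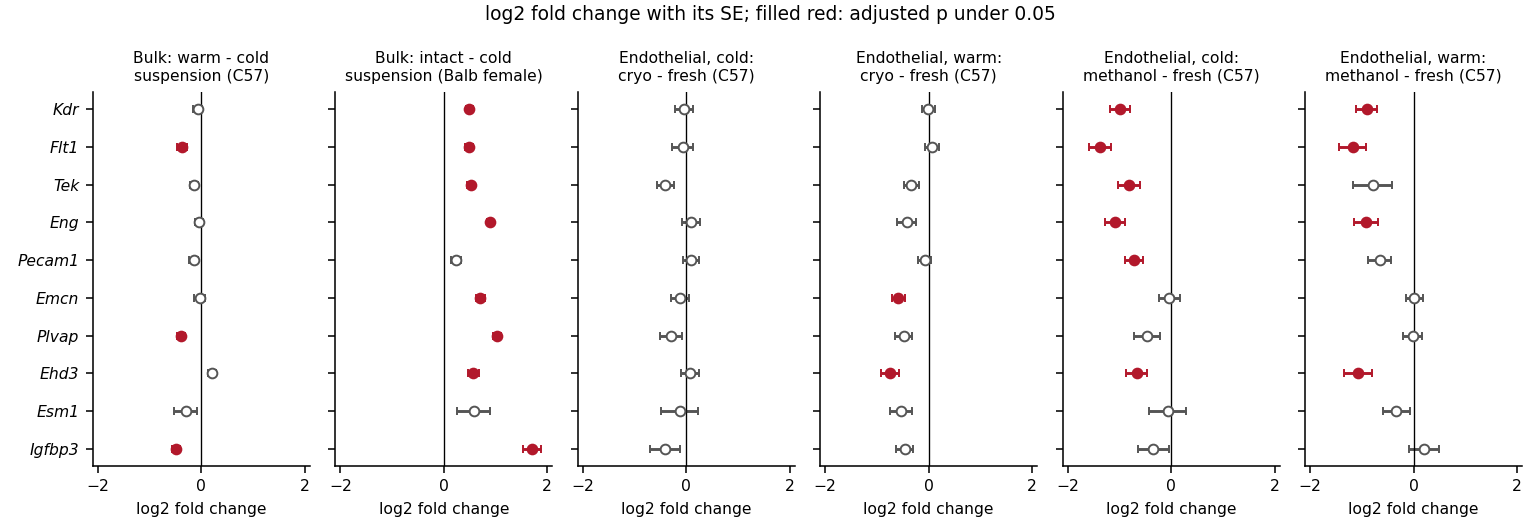
Log2 fold change of the 10 genes, with its SE, in 6 comparisons of bulk suspensions, intact kidney and stored cells; filled red points have an adjusted p under 0.05. In intact kidney 8 of the 10 genes lay above 0 and past the test, and in methanol-fixed cold cells 6 lay below 0 and past the test.

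Storage of the C57BL/6J suspensions was compared with fresh aliquots of the same kidneys. Cryopreservation after cold dissociation called none of the 10 genes, by edgeR or by DESeq2, and 1 (Tek) had an unadjusted p under 0.05, while edgeR called 7.87% of 5157 genes. Tek was at 455, 352 and 337 normalised CPM in fresh and 297, 272 and 300 in cryopreserved sums (-0.41 ± 0.17, adjusted p = 0.167), and the groups did not overlap. In CPM of the sums without factors the groups did overlap for Tek (298 to 512 in fresh and 275 to 306 in cryopreserved libraries). Kdr was at 680, 658 and 561 against 766, 626 and 483, and Plvap at 3613, 2231 and 2154 against 2664, 1725 and 2240, both overlapping. Eng (0.09), Pecam1 (0.08), Ehd3 (0.07), Flt1 (-0.07), Emcn (-0.12) and Esm1 (-0.13) overlapped too, with adjusted p from 0.777 to 0.901. With the kidney as a block, Igfbp3 was called lower (-0.46, adjusted p = 0.032), at 1396, 917 and 624 in fresh and 1165, 487 and 581 in cryopreserved sums. Leaving out cryopreserved replicate 1 also called it (-0.88, adjusted p = 0.0444). Of 53 pathway genes, 7 were higher and none lower, with Klf4 at 1.70 ± 0.17, the tight junction gene Cldn5 at 1.14 ± 0.20 and Id1 at 0.93 ± 0.16. Cldn5 was one of the markers that named the endothelial-like class, as were Cd34, Erg, Ptprb, Sox17 and Tie1. Their values in endothelial sums are therefore descriptions and not independent of that naming. Podxl was a marker of the podocyte class. The summed stress genes went from 3358 to 3467 CPM in fresh to 11394 to 13498 CPM in cryopreserved endothelium.

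After warm dissociation edgeR called lower in cryopreserved cells 2 of the 10 genes, and the median of the 10 was -0.448 against -0.0184 for all genes. Of 4691 genes 3.30% were called lower. Emcn went from 2541, 1926 and 2055 to 1396, 1505 and 1378 (-0.59 ± 0.13, adjusted p = 0.0109), and Ehd3 from 340, 293 and 231 to 159, 192 and 149 (-0.75 ± 0.18, adjusted p = 0.0155). Neither gene overlapped. The adjusted p of Ehd3 was 0.0686 without the glomerular subclusters (-0.59), and its call was also lost without warm cryopreserved replicate 1 (adjusted p = 0.0519) or 3 (0.0989). Another 5 genes had an unadjusted p under 0.05 without being called, among them Plvap, at 4125, 2994 and 3181 against 1900, 2773 and 2592 (-0.48 ± 0.16, adjusted p = 0.0723). Without warm fresh replicate 2 the count was 6 of 10 (Eng, Plvap, Esm1 and Igfbp3 in addition), and without warm cryopreserved replicate 3 it was 0, Emcn then having an adjusted p of 0.0831. Kdr was at 659, 560 and 571 against 582, 562 and 612, and Flt1 at 723, 556 and 702 against 631, 675 and 721, with overlap. The remaining log2 fold changes were -0.33 for Tek, -0.43 for Eng, -0.08 for Pecam1, -0.53 for Esm1 and -0.47 for Igfbp3, with adjusted p from 0.103 to 0.774. Of 52 pathway genes 3 were higher and 4 lower, with Id1 at 1.84 ± 0.15 and Klf4 at 1.14 ± 0.14 against the junction gene Jam3 at -0.83 ± 0.22 and Cd34 at -0.58 ± 0.16. Barcodes named peritubular numbered 275 of 513 in the warm fresh and 153 of 780 in the warm cryopreserved libraries, and 172 and 541 were unnamed, whose part in these values was not tested.

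In the Balb/c females, for which the methods also describe aliquots of cold suspensions without tying single libraries to a kidney, cryopreservation called none of the 10, by edgeR or by DESeq2, and none had an unadjusted p under 0.05, with 1.91% of 7654 genes called. Esm1 was at 749, 899 and 376 in fresh and 689, 217 and 1281 in cryopreserved sums, cryopreserved replicate 2 being the lowest and replicate 3 the highest of all 6. Plvap was at 1300, 1388 and 1163 against 1142, 723 and 1313 (-0.29 ± 0.17). The others lay between -0.17 (Igfbp3) and 0.38 (Ehd3), with Eng at 0.24, Pecam1 at 0.14, Kdr at 0.13, Flt1 at 0.11, Emcn at 0.05 and Tek at -0.04 (adjusted p from 0.518 to 0.953). The difference between the cryopreservation effects of the 2 experiments was tested and called none of the 10, none with an unadjusted p under 0.05, beside 0.861% of 7551 genes. The 2 experiments also differed in storage length and centrifugation speed, besides strain, sex, age and chemistry version, and these cannot be told apart.

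The share of endothelial-like barcodes was larger in the cryopreserved libraries. Endothelial-like barcodes made up 6.71% ± 1.54 of fresh and 25.3% ± 1.10 of cryopreserved cold-dissociated C57BL/6J barcodes, 4.50% ± 0.172 and 22.6% ± 2.55 after warm dissociation, and 5.60% ± 0.783 and 24.3% ± 2.52 in the Balb/c females. Every cryopreserved library lay above every fresh one, and the exact two-sided permutation p of 0.1 is the smallest that 3 against 3 libraries allow (adjusted p = 0.133 over 12 comparisons). Outside the proximal tubule cells, the share in cold C57BL/6J libraries was 11.6% to 15.8% in fresh and 24.2% to 26.2% in cryopreserved ones. The fresh ones also held 1817 barcodes of no named class, beside 5686 named proximal tubule. These unnamed barcodes stayed in that denominator, and their part in the share was not tested.

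Kdr, Flt1 and Eng were among the genes that edgeR called lower after methanol fixation, with either dissociation. In cold-dissociated cells 6 of the 10 genes were lower and none higher, where 14.7% of 4442 genes were called lower. Flt1 went from 884, 681 and 566 normalised CPM in fresh to 181, 307 and 305 in methanol-fixed sums (-1.37 ± 0.21, adjusted p = 0.00025). Eng went from 1105, 857 and 817 to 461, 492 and 368 (-1.08 ± 0.19, adjusted p = 0.000813), and Kdr from 681, 654 and 566 to 363, 277 and 338 (-0.99 ± 0.19, adjusted p = 0.00129). For each of these 3 receptors all methanol-fixed libraries lay below all fresh ones. Tek went from 455, 350 and 340 to 255, 176 and 234 (-0.82 ± 0.21, adjusted p = 0.00762) and Pecam1 from 619, 607 and 530 to 371, 380 and 332 (-0.71 ± 0.17, adjusted p = 0.00637), also without overlap. In CPM of the sums without factors, however, Tek overlapped (298 to 512 in fresh and 166 to 309 in methanol-fixed libraries).

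Of the capillary and secreted markers only Ehd3 was called. Emcn was at 2232, 1934 and 1723 in fresh and 2085, 2061 and 1598 in methanol-fixed sums (-0.04 ± 0.20, adjusted p = 0.911), and Esm1 at 1790, 828 and 489 against 1450, 866 and 630 (-0.07 ± 0.37). Plvap was at 3615, 2217 and 2173 against 2340, 2022 and 1424 (-0.46 ± 0.25, adjusted p = 0.178), and Igfbp3 at 1397, 911 and 629 against 1170, 679 and 496. All 4 overlapped between the groups. With the kidney as a block, however, Plvap (-0.45, adjusted p = 0.0067) and Igfbp3 (-0.35, adjusted p = 0.0374) were called lower as well, which made 8 of 10. Ehd3 was at 323, 333 and 360 against 165, 291 and 174 (-0.66 ± 0.20, adjusted p = 0.0214). Its call was lost in 4 of 6 leave-outs, without glomerular subclusters (-0.47, adjusted p = 0.157) and by DESeq2 (adjusted p = 0.147), which called 4 genes and also lost Tek (adjusted p = 0.056). Pecam1 was lost without methanol replicate 2 (adjusted p = 0.0641) or 3 (0.0568) and Tek without methanol replicate 2 (0.133).

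The median of the 10 genes was -0.687 and that of all genes -0.0246. Other receptors of the same families were lower in 5 of 5 cases, among them Nrp2 (-3.48 ± 0.52, from 97 to 6 UMIs) and Flt4 (-2.20 ± 0.58, from 59 to 9 UMIs). The endothelial transcription factors were lower in 5 of 12 cases, with Erg at -1.82 ± 0.39 and Ets1 at -1.59 ± 0.23, and of all 50 pathway genes 15 were lower and 2 higher, the latter Cldn5 (0.75 ± 0.27) and Igfbp4 (0.73 ± 0.25). Signs of RNA from other cells moved with fixation. Proximal tubule transcripts summed to 6161 to 9318 CPM in fresh and 19003 to 27896 CPM in methanol-fixed endothelial sums, and hemoglobin to 6761 to 27140 and 17469 to 36684 CPM, while the other endothelial markers summed to 14151 to 20044 and 11598 to 18136 CPM. Barcodes named peritubular numbered 476 of 825 in fresh and 20 of 558 in methanol-fixed libraries, most of the latter (456) being unnamed. The part of these changes in the lower receptors was not tested.

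After warm dissociation 4 of the 10 genes were lower with methanol, with 6.49% of 2528 genes called lower. Flt1 went from 846, 656 and 820 to 445, 241 and 260 (-1.18 ± 0.25, adjusted p = 0.0107), Kdr from 771, 661 and 668 to 397, 350 and 231 (-0.91 ± 0.20, adjusted p = 0.0126), and Eng from 1773, 989 and 1402 to 746, 638 and 578 (-0.93 ± 0.23, adjusted p = 0.0207). Ehd3 went from 398, 346 and 269 to 159, 140 and 144 (-1.07 ± 0.27, adjusted p = 0.0223, and 0.0569 without glomerular subclusters). None of the 4 overlapped on these normalised values. In CPM of the sums without factors Eng did overlap, at 817 to 1704 in fresh and 617 to 843 in methanol-fixed libraries. Emcn was at 2972, 2274 and 2401 against 2525, 2351 and 2023 (0.01 ± 0.16) and Plvap at 4826, 3535 and 3717 against 4050, 3861 and 2716 (-0.02 ± 0.18), both with overlap. Pecam1 (-0.65 ± 0.22, adjusted p = 0.0713) did not overlap on the normalised values, but did in CPM of the sums (554 to 668 against 331 to 638). Esm1 (-0.34 ± 0.26) and Igfbp3 (0.20 ± 0.30) overlapped. Igfbp3 was at 1708, 1054 and 1171 against 1541, 1845 and 462. The group means of Igfbp3 (1311 and 1283) and of Emcn (2549 and 2299.7) ran against the sign of the fitted values, in which libraries with more counts weigh more. Barcodes named peritubular numbered 275 of 513 in the fresh and 9 of 185 in the methanol-fixed libraries, 159 of the latter being unnamed.

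The warm methanol libraries were thin, with 46, 125 and 14 endothelial-like barcodes. Tek had no UMI among 28213 in replicate 3, which allows up to 106 CPM, against 254 and 257 CPM in the other two libraries, and its difference of -0.79 ± 0.38 had an adjusted p of 0.185. Without this thinnest library 5 of the genes were called, Pecam1 (-0.85, adjusted p = 0.0224) in addition. Without methanol replicate 2, the largest, 0 were called, with Kdr at -0.92, Flt1 at -0.91 and Eng at -0.88 (adjusted p from 0.0756 to 0.0954), and without warm fresh replicate 3 there was 1, Ehd3. Ehd3 in turn was lost without warm fresh replicate 1 or methanol replicate 1 (adjusted p = 0.0559 and 0.0502) and by DESeq2 (0.0593). Of 38 pathway genes, none was higher and 8 were lower, among them Nrp1, the co-receptor of Kdr (-1.20 ± 0.20), and Igfbp5 (-0.93 ± 0.21). Cldn5, called higher in the cold methanol-fixed cells, was called lower here (-2.21 ± 0.57, from 307 to 16 UMIs, adjusted p = 0.024), and the difference between these effects was not tested. The summed proximal tubule transcripts were at 6614 to 12035 CPM in fresh and 18052 to 24350 CPM in methanol-fixed sums. The comparisons of storage share their fresh libraries with each other and with the comparison of warm and cold fresh cells.

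**Figure D4:**
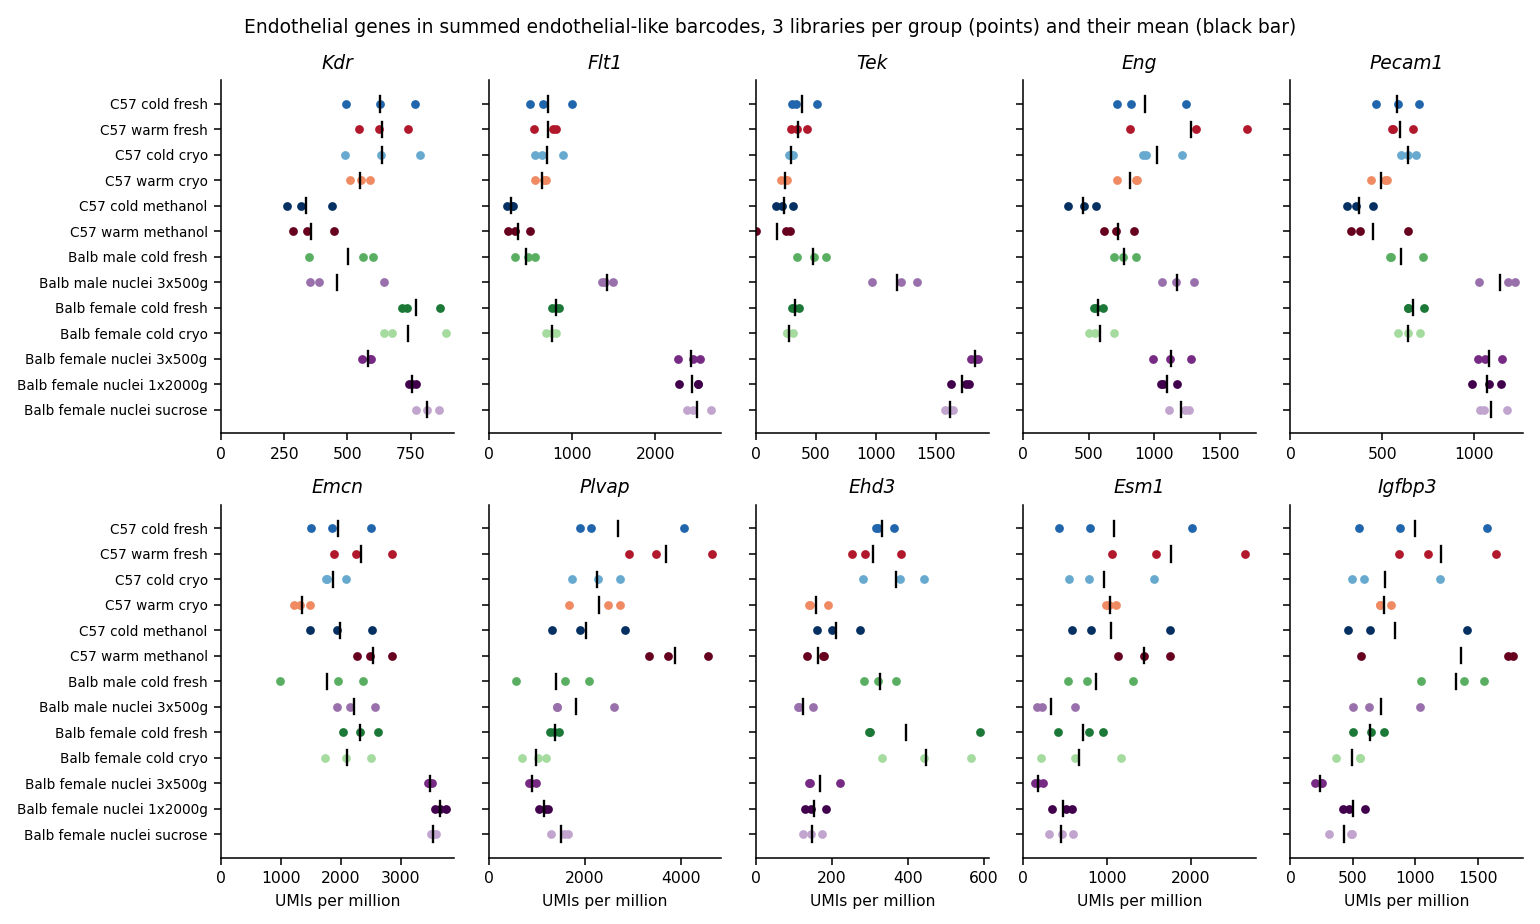
Level of each of the 10 genes in the endothelial-like sums of 39 droplet libraries, in CPM of the sum, by the 13 groups of cells and nuclei; points are libraries and bars means. Mitochondrial genes were listed for C57BL/6J and Balb/c female cells only and enter their totals, so that levels of cells and nuclei are not on one scale. Kdr, Flt1 and Eng had lower means in each methanol-fixed group than in fresh cells of the same dissociation. The libraries of Eng overlapped after warm dissociation, and Esm1 spread widely within most groups.

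Warm and cold dissociation were also set against each other in stored cells. In cryopreserved cells Ehd3 alone was called, against 1.58% of 4816 genes called lower, at 415, 362 and 270 in the cold and 156, 190 and 149 in the warm libraries (-1.03 ± 0.18, adjusted p = 0.000205). The groups did not overlap. Barcodes named glomerular numbered 73 of 895 in the cold and 1 of 780 in the warm cryopreserved libraries. Peritubular ones numbered 454 and 153, and 270 and 541 were unnamed. Without the glomerular subclusters Ehd3 stood at 0.12 (adjusted p = 0.801), with 0 of the 10 called. The other 9 genes lay between -0.28 (Emcn) and 0.31 (Esm1), with Plvap at 0.22, Igfbp3 at 0.18, Flt1 at 0.07, Kdr at -0.01, Tek at -0.08, Eng at -0.13 and Pecam1 at -0.19 (adjusted p from 0.284 to 0.978). Without cold cryopreserved replicate 1, Esm1 (0.80) and Igfbp3 (0.65) were called higher in addition. The warm effect on Ehd3 was lower in cryopreserved than in fresh cells by -0.82 ± 0.26, with an unadjusted p of 0.00443 and an adjusted p of 0.251. That test of the difference called none of the 10, 2 had an unadjusted p under 0.05, and 0.606% of 5771 genes were called.

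In methanol-fixed cells warm and cold dissociation called none of the 10, by edgeR or by DESeq2, while 3 had an unadjusted p under 0.05 and 1.78% of 1738 genes were called. Plvap came nearest, at 2686, 2186 and 1598 in the cold and 4027, 3851 and 2780 in the warm libraries (0.90 ± 0.23, adjusted p = 0.0619), without overlap. Igfbp3 was at 0.82, Eng at 0.59, Esm1 at 0.49, Emcn at 0.29, Flt1 at 0.19, Kdr and Pecam1 at 0.07, Tek at -0.08 and Ehd3 at -0.58, with adjusted p of 0.267 or more. For Kdr (365 in the cold and 327 in the warm libraries) and Pecam1 (403 and 402) the group means ran against the sign of the fitted values, which lie within their SE of 0. Without cold methanol replicate 1, Plvap (1.10), Esm1 (0.91) and Igfbp3 (1.27) were called higher. The difference between the warm effects in methanol-fixed and fresh cells called none of the 10, none with an unadjusted p under 0.05, and 0% of 4069 genes.

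Nuclei and cells of the Balb/c females were compared to see which endothelial genes a nuclear preparation keeps. Here 3 of the 10 were higher and 5 lower in 3x500g nuclei, while of 9238 genes 41.0% were called higher and 39.1% lower, so that a call by itself was the rule. Tek went from 453, 423 and 494 normalised CPM in cells to 1769, 1755 and 1783 in nuclei (1.93 ± 0.11, adjusted p = 1.2e-12), and Flt1 from 1080, 1130 and 1153 to 2410, 2161 and 2463 (1.04 ± 0.10, adjusted p = 9.2e-09). Eng went from 761.5, 777 and 831 to 970, 1058 and 1239 (0.44 ± 0.11, adjusted p = 0.00121). All nuclear libraries lay above all cell libraries for these 3 receptors.

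Kdr, the main growth factor receptor, went the other way, from 1017, 1037 and 1182 to 550, 560 and 576 (-0.96 ± 0.10, adjusted p = 4.8e-08). The secreted products Esm1 and Igfbp3 and the capillary genes Plvap and Ehd3 were lower as well. Esm1 went from 1116, 1335 and 566 to 134, 219 and 174 (-2.53 ± 0.22), Igfbp3 from 1061, 907 and 686 to 195, 235 and 248 (-1.99 ± 0.14), and Plvap from 1937, 2061 and 1752 to 825, 831 and 954 (-1.16 ± 0.11). None of them overlapped. Ehd3 went from 426, 420 and 803 to 217, 133 and 137 (-1.80 ± 0.21), and by less without glomerular subclusters (-0.51). Emcn was at 2895, 3265 and 3577 against 3409, 3343 and 3374 (0.03 ± 0.10, adjusted p = 0.764, but 0.24 and 0.0239 without glomerular subclusters), and Pecam1 at 906, 898 and 992 against 1005, 1093 and 1023 (0.13 ± 0.10, adjusted p = 0.229).

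These values depended on the scale. The comparison used genes listed in both kinds of library and TMM factors. The 13 mitochondrial genes, 21.2% to 24.7% of the endothelial UMIs of cells, were not listed for nuclei and were left out. Scaled instead to the total of all listed genes without factors, Emcn averaged 2328 ± 287 CPM in cells and 3492 ± 31.1 in nuclei (0.60 ± 0.10, adjusted p = 2.47e-05) and Pecam1 668 ± 50.3 and 1077 ± 68.0 (0.71 ± 0.11, adjusted p = 5.63e-06), both called higher and without overlap, while Kdr was lower by less (-0.39 ± 0.11, adjusted p = 0.00255). On that scale all 10 genes were called, 5 higher and 5 lower, the median of all genes was 0.727 instead of 0.0872, and 5116 genes were higher and 2826 lower, against 3791 and 3612. With TMM factors and the unlisted genes at 0, Emcn stood at -0.0034 and Pecam1 at 0.10, neither called.

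Barcodes named peritubular numbered 406 of 926 in the cells and 128 of 2214 in the nuclei, and 288 and 1655 were unnamed, whose part in the values of Plvap, Esm1 and Igfbp3 was not tested. Of 58 pathway genes 18 were higher and 33 lower. Igf1r (2.91 ± 0.14), Fli1 (2.67 ± 0.12) and Erg (2.25 ± 0.13) were among the higher ones. Cldn5 (-5.25 ± 0.21), Klf4 (-4.11 ± 0.19) and Icam2 (-3.35 ± 0.12) were among the lower.

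The differences of the 10 genes went with gene length. Between gene length and log2 fold change the Spearman correlation was 0.891 over the 10 genes and 0.765 over 8965 genes with a length, a description across genes, which share the libraries. Medians over 4 equal classes of genes by length, from short to long, were -2.12, -0.54, 0.59 and 2.00 in the females. Within its own length class, Kdr lay above 11.3% of genes, Pecam1 above 7.99%, Emcn above 7.18%, Ehd3 above 19.1% and Flt1 above 21.7%, and Plvap (32.1%), Esm1 (38.7%), Eng (44.0%), Tek (47.0%) and Igfbp3 (53.7%) nearer the middle. In the males the values were 10.8% for Tek, 12.1% for Ehd3, 17.9% for Flt1, 33.7% for Kdr, 41.9% for Emcn, 49.0% for Eng, 56.2% for Pecam1, 56.4% for Esm1 and 87.2% for Plvap, with Igfbp3 between the last pair, each within the classes of the genes tested in that sex. Reads from introns were counted in nuclei only, and their part in these differences was not tested.

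In the Balb/c males 4 of the 10 were higher and 1 lower in nuclei, with 42.7% of 1671 genes called higher and 38.4% lower. Flt1 went from 580, 492 and 276 to 1625, 1408 and 1320 (1.99 ± 0.31), Tek from 618, 504 and 299 to 1414, 1269 and 945 (1.65 ± 0.31), Pecam1 from 571, 564 and 620 to 1422, 1113 and 994 (1.37 ± 0.27) and Eng from 898, 791 and 597 to 1520, 1095 and 1026 (1.00 ± 0.28). Ehd3 went from 299, 384 and 276 to 131, 104 and 147 (-1.04 ± 0.35, adjusted p = 0.0093). None of these 5 overlapped. The other 5 overlapped, with Plvap at 0.70 ± 0.39, Emcn at 0.68 ± 0.33, Kdr at 0.28 ± 0.33, Igfbp3 at -0.45 ± 0.32 and Esm1 at -0.87 ± 0.41 (adjusted p from 0.0577 to 0.442). Kdr was at 589.5, 623 and 299 in cells and 750.4, 330.3 and 375 in nuclei, so that its group means (504 and 485) ran against the sign of the fitted value. The correlation with length was 0.794 over the 10 genes and 0.787 over all.

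These male values rest on few clean barcodes. The cells numbered 256, 161 and 123 and the nuclei 444, 87 and 84, and 792 of 1407 endothelial-like nuclei (56.3%) fell in clusters rich in tubule markers or in marked doublets and were set apart. By subcluster, 90 of the 540 cells were arterial or arteriolar-like and 450 unnamed, against 85 venous or ascending vasa recta-like and 530 unnamed among the 615 nuclei, so that no named vessel type was shared, and the part of this in the values was not tested. With the barcodes set apart kept, Kdr was lower in nuclei (-1.004, adjusted p = 0.0118) and Eng turned to -0.26, Tek was at 0.41 (adjusted p = 0.264) and Pecam1 to 0.07, while Esm1 and Igfbp3 reached -2.12 and -1.72. The call of Eng was lost without cell replicate 3 (0.49, adjusted p = 0.103) and that of Ehd3 without nuclear replicate 1 (-0.73, adjusted p = 0.12), while Emcn, Plvap, Esm1 and Igfbp3 were each called in 2 or 3 of the 6 fits that left out a library. Scaling moved the centre as well, the median of all genes being 0.123 with TMM and 0.366 with RLE factors, under which 7 of the 10 were called. In the females 10.3% of nuclei and 11.6% of fresh cells were set apart in the same way, and keeping them took Eng to 0.09 (adjusted p = 0.512) and Emcn to -0.31. Whether the effect of nuclei differed between males and females was not tested.

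The 3 nuclear preparations of the Balb/c females were compared among themselves, both others against the same 3x500g libraries. The sorted preparations differed in the number of washes as well as in spin speed. Sucrose nuclei differed from the 3x500g ones by added DNase, spin speeds, the gradient and the lack of a sort. Within each comparison these steps cannot be told apart. Kdr, Plvap, Esm1 and Igfbp3 were higher in both other preparations, 4 of 10 and none lower. Over all genes, 13.4% of 11079 were called higher with 1x2000g and 10.6% of 11017 with sucrose. With 1x2000g, Esm1 went from 137, 225 and 175 to 347, 511 and 598 (1.39 ± 0.17, adjusted p = 1.3e-05) and Igfbp3 from 199, 241 and 250 to 434, 475 and 607 (1.10 ± 0.12, adjusted p = 2.9e-06). Kdr went from 562, 573 and 580 to 791, 751 and 767 (0.40 ± 0.07), and Plvap from 843, 851 and 961 to 1201, 1066 and 1263 (0.39 ± 0.08). None of the 4 overlapped. The other 6 were not called, with Emcn at 0.09, Flt1 at 0.03, Pecam1 at 0.01, Eng at -0.02, Tek at -0.06 and Ehd3 at -0.08 (adjusted p from 0.271 to 0.936).

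With sucrose, Plvap went from 848, 870 and 984 to 1569, 1620 and 1333 (0.74 ± 0.10, adjusted p = 8.5e-05), Esm1 from 138, 230 and 179 to 457, 580 and 313 (1.28 ± 0.19), Igfbp3 from 201, 246 and 256 to 484, 479 and 315 (0.85 ± 0.15) and Kdr from 566, 586 and 594 to 811, 845 and 790 (0.48 ± 0.09). All sucrose libraries lay above all 3x500g libraries for these 4 genes. The long genes Flt1 and Tek were not called. Flt1 stood at 2478, 2263 and 2540 against 2443, 2333 and 2736, and Tek at 1819, 1838 and 1838 against 1639, 1547 and 1664 (-0.19 ± 0.09, adjusted p = 0.138). Eng (0.08), Emcn (0.02), Pecam1 (0.0064) and Ehd3 (-0.18) were not called either, with adjusted p from 0.474 to 0.972. Barcodes named peritubular, the bed rich in Plvap, Esm1 and Igfbp3 among the fresh cells, numbered 128 of 2214 in 3x500g, 1433 of 3809 in 1x2000g and 890 of 3343 in sucrose nuclei, while 1655, 1757 and 1856 were unnamed. Proximal tubule transcripts summed to 1444 to 1756, 5935 to 8437 and 2507 to 3089 CPM. The part of either in the 4 genes was not tested. The junction and adhesion genes were higher in 6 of 11 cases with 1x2000g and 5 of 11 with sucrose, led by the class marker Cldn5 (1.24 ± 0.25 and 1.29 ± 0.27) and Icam2 (1.00 ± 0.11 and 1.21 ± 0.14), and none was lower. The growth factor and angiopoietin ligands were higher in none and lower in 2 of 6 cases with 1x2000g, and higher in 2 and lower in 2 of 5 with sucrose. Of all pathway genes, 15 of 59 were higher and 5 lower with 1x2000g, and 18 of 58 higher and 6 lower with sucrose. Endothelial-like barcodes made up 9.67% ± 2.34 of 3x500g, 14.4% ± 2.27 of 1x2000g and 13.5% ± 0.834 of sucrose nuclei (exact two-sided permutation p = 0.1 in both comparisons, the smallest possible).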

How the data were processed

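Whole-kidney RNA was measured in 15 bulk and 39 droplet (10x) libraries in 18 groups of 3. The authors deposited raw read counts per gene (STAR 2.6.1a, featureCounts, GRCm38) and raw UMI counts per barcode (Cell Ranger 2.1.1, mm10), the latter already limited to barcodes that passed their filters and to genes seen in a minimum of cells. Genes that a library of a comparison did not list were left out of that comparison. This removed 22.3% to 25.9% of the endothelial UMIs of female cells set against nuclei, 1.97% to 2.17% of those of these nuclei, and at most 1.13% elsewhere.

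Barcodes were clustered in 5 sets with scikit-learn 1.9.0, igraph 0.11.9 and leidenalg 0.10.2, without the 10 genes. The settings were 2000 variable genes, 30 components, 20 neighbours and resolution 2, and a class needed 3 markers. Doublets were marked by rank of a score at 0.8% per 1000 barcodes and kept in the main sums, except in clusters set apart as mixed (at least 40% marked, or markers of another class as high as the endothelial ones). Counts were summed per library over endothelial-like barcodes (at least 10) and tested, like the bulk counts, with edgeR 4.0.16 (R 4.3.3, TMM factors, filterByExpr, quasi-likelihood F test, Benjamini-Hochberg adjustment over all genes tested), a call being an adjusted p under 0.05. SE is the size of the log2 fold change divided by the square root of F. Normalised CPM uses the TMM factors of that comparison, over the genes it keeps, so values of a library differ between comparisons (Kdr in fresh female cells averaged 722 beside cryopreserved cells and 1079 beside nuclei). All 10 genes were tested in every comparison, and pathway genes were named from the 2 called with the largest change per direction and list. The genes, lists and tests were chosen with earlier results of these data known. The fits were checked on simulated counts.

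Fresh, cryopreserved and methanol-fixed aliquots carried the name of the same kidney in their barcodes, and were also fitted with the kidney as a block. Over the cold cryopreserved pairs the correlations of same-kidney deviations were 0.27, 0.14 and 0.25, and over the cold methanol pairs 0.26, 0.01 and 0.37. Over the warm pairs they were -0.03, -0.02 and 0.08 for cryopreserved and 0.16, -0.01 and 0.05 for methanol-fixed aliquots. Warm and cold fresh libraries that shared only a number gave 0.30, 0.06 and 0.01. Alternatives were DESeq2 1.42.0, RLE factors, no low-count filter, resolution 1, other naming, and leaving out doublets, glomerular subclusters or each library; the block, the mixed clusters, library totals without factors, unlisted genes at 0 and the tests of differences between effects were added after the data were seen. The unit of replication is the kidney, and counting intervals cover counting error only.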

Additional observations from a re-analysis of the deposited data

How the results depend on the processing

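Of the values of the 10 genes under all alternatives, 1947 kept their side of the threshold and, where called, their direction, 37 lost their call, 52 gained one and 4 reversed. A change of sign between values that were both uncalled was not counted as a reversal. The reversals were Ehd3 in warm against cold cryopreserved cells without glomerular subclusters (0.12), Kdr (-1.004) and Eng (-0.26) in male nuclei, and Emcn in female nuclei (-0.31), the last 3 with mixed clusters kept, under which the pathway genes Ptprb (-0.30) and Tgfbr2 (-0.23) also reversed in male nuclei. Tie1 reversed (0.24) in female nuclei scaled to the totals of all listed genes without factors, under which Emcn and Pecam1 were called higher. The number of the 10 genes called moved by more than 1.5 times as follows. Without the low-count filter it was 1 in warm against cold fresh cells and 6 in warm cryopreserved against fresh cells. Without glomerular subclusters it was 1 in the latter and 0 in warm against cold cryopreserved cells. Naming each barcode by its own markers gave 1 in warm against cold methanol-fixed cells. Leaving out a library gave 0 to 1 in warm against cold fresh cells, 0 to 1 and 0 to 6 for cryopreservation after cold and warm dissociation, 0 to 5 for methanol after warm dissociation, and 1 to 3 and 0 to 3 for warm against cold in cryopreserved and methanol-fixed cells.

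With the kidney as a replicate block, 1 gene (Igfbp3) was called in cold cryopreserved and 8 in cold methanol-fixed cells, and the block changed no other call of the 10 genes among aliquots of the same kidney. Warm and cold libraries shared only a number. Blocking on it called 1 gene, Plvap (0.90, adjusted p = 0.0015), in methanol-fixed cells, and 0 and 1 in fresh and cryopreserved cells, as without it. With the kidney as a block, the differences between the warm effects in stored and fresh C57BL/6J cells again called 0 of the 10 genes, and 35 and 2 of all genes in cryopreserved and methanol-fixed cells, against 35 and 0 without it. For the bulk, Balb/c and nuclear comparisons, No paired analysis was possible because neither labels nor files say which of their libraries share a kidney.

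Counts of all called genes moved too. DESeq2 gave 452 instead of 1238 for cold methanol, 179 instead of 296 for warm methanol, 1347 instead of 2318 for 1x2000g and 1150 instead of 2084 for sucrose nuclei, 90 instead of 146 for Balb/c cryopreservation, and 2695 instead of 1356 for male nuclei. Without the filter, 1912 instead of 1224 genes were called in bulk warm against cold, 193 instead of 71 in fresh cells, 665 instead of 406 and 761 instead of 438 for cold and warm cryopreservation, 536 for warm methanol and 3830 for male nuclei, which reached 4284 with mixed clusters kept. Of the smaller counts, 237 instead of 361 genes were called in warm against cold cryopreserved cells with barcodes named by their own markers, and 75 instead of 31 in methanol-fixed cells without the filter. The differences between effects called 111 instead of 35, 18 instead of 0 and 111 instead of 65 genes without the filter, and the last 43 without glomerular subclusters. Leaving out a library moved bulk warm against cold down to 776, cold methanol to 702, warm methanol to 89, male nuclei up to 2098, sucrose down to 1138 and Balb/c cryopreservation to 69 or 260. Depth limits the warm methanol sums, with 14 barcodes in 1 library, and the male sums, in which 1671 genes were tested.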

Other observations

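Over 44 sums of 15 cell classes in fresh cold-dissociated C57BL/6J cells, the genes whose log2(CPM + 1) was most like Kdr were Unc45b (Pearson r 0.843, 91 UMIs), Apol9b (0.840, 51 UMIs) and Tmem88 (0.838, 202 UMIs), out of 11252 genes with at least 50 UMIs. For Plvap they were AU021092 (0.798, 861 UMIs), Apol9b (0.798) and Cd34 (0.792, 539 UMIs), and for Ehd3 they were Mfap2 (0.731, 82 UMIs), Tnxb (0.730, 53 UMIs) and Cldn15 (0.726, 149 UMIs). Among the 10 genes the closest pair was Kdr and Flt1 (0.794) and the most distant Pecam1 and Ehd3 (0.358). The sums share libraries and many counts are sparse, so these values describe the sums only.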
